A study of Mus musculus with 9 samples.

Results

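The 9 genes described here encode structural proteins of myelin and of the oligodendrocytes that make it. They are Mbp, Mobp, Cnp, Mog, Mag, Cldn11, Mal, Opalin and Ermn, and they were taken by gene symbol from a table of 14351 genes measured in mouse hypothalamus. All 9 were in the table, and none was dropped by the minimum expression level the authors set. The question was whether the hypothalamus of Clic1 knockout (KO) mice held the same amount of myelin RNA as that of wild-type (WT) mice, gene by gene and library by library. Clic1 encodes a chloride intracellular channel protein, and the KO is of the whole body, so no cell type was targeted.

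The 9 libraries came from 9 male mice, 1 library per mouse, with 5 labelled or placed as Clic1 KO (replicates 2, 4, 6, 8 and 10) and 4 as WT (replicates 1, 3, 9 and 11). By the study's methods both groups were littermates on a CD-1 background fed normal chow, whereas the sample labels give the strain as C57b/6J, which conflicts with them. The labels name the hypothalamus as the tissue but carry a treatment note on adipose tissue. No age at RNA collection was given. Replicate 10 was described in conflicting ways. Its title and treatment label call it WT, whereas its column name in the deposited table puts it with the KO mice, where it was placed here. Results that change without it, or with it as WT, are given both ways.

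Facts of the series that bear on the values are few. Clic1 ran at 0.733 to 1.93 normalized CPM (reads of a gene relative to the size of its library) in the KO libraries, 1.43 in replicate 10, and at 3.58 to 5.52 CPM in the WT libraries. Its log2 fold change was -1.80 (SE 0.27; adjusted p = 0.0153, limma with Benjamini-Hochberg adjustment over all genes), -1.84 without replicate 10 (limma adjusted p = 0.00494) and -1.51 with replicate 10 as WT, where it did not pass (limma adjusted p = 0.501). All 10 genes of a hypothalamic marker list (Avp, Oxt, Pomc, Agrp and others) were measured. Depth, estimated from the steps between low values, was 5.45 to 11.1 M reads in 8 libraries and 20.2 M in KO replicate 10. That library also stood apart in expression. Among 12072 genes that averaged 5 CPM or more, 63.4% were above or below all of the other 8 libraries there, against at most 22.3% in any other library.

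Oligodendrocytes wrap axons of the central nervous system in many turns of membrane, which are pressed together into compact myelin and speed the conduction of impulses. Compact myelin is held together on its cytoplasmic side by small basic proteins and crossed by tight junctions, while other proteins sit on its outer face, next to the axon, or in channels of cytoplasm. The hypothalamus is mostly grey matter but borders large tracts such as the optic tract and the fornix, so a dissection that takes more or less of a tract takes more or less white matter. In bulk RNA, fewer oligodendrocytes and less myelin RNA per oligodendrocyte cannot be told apart.

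The members ranged widely in level. Divided by the length of their merged exons, the WT level was highest for Mbp, at 244 ± 16.5 CPM per kb (SD, n = 4). Next came Mobp at 71.0 ± 8.98 and Cnp at 61.0 ± 5.99 CPM per kb, Cldn11 at 43.6 ± 4.81 and Mal at 38.2 ± 3.96 CPM per kb, and then Mag at 24.1 ± 3.25, Mog at 22.3 ± 3.87 and Ermn at 17.4 ± 1.89 CPM per kb. Opalin was lowest, at 5.6 ± 0.573 CPM per kb. In this order, the 1 SD ranges overlapped for Mobp and Cnp, Cldn11 and Mal, Mag and Mog, and Mog and Ermn. Both genes of such a pair were measured in the same libraries, so this overlap does not test their difference. The KO means gave the same order, from 210 ± 23.5 CPM per kb for Mbp to 5.36 ± 0.238 CPM per kb for Opalin (SD, n = 5). Together the 9 genes took 0.265% to 0.346% of all normalized CPM in a library.

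The members do not sit together in the genome. On GRCm38, with GENCODE release M21 annotation, Mobp lies on chromosome 9 (120149707 to 120181484), Cnp on chromosome 11 (100574904 to 100591729), Mag on chromosome 7 (30899176 to 30914873), Cldn11 on chromosome 3 (31149920 to 31164324) and Opalin on chromosome 19 (41061710 to 41077113). Ermn (58045113 to 58052864) and Mal (127633226 to 127656695) are both on chromosome 2. Mog lies on chromosome 17 (37010743 to 37023398), 1.95 Mb from Clic1 itself (35049966 to 35058749), and so is the only member on the chromosome that carries the deleted gene. Values are per gene, summed over all its transcripts, of which the annotation lists 16 for Mbp and 1 each for Cldn11 and Ermn.

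The stretches just upstream of 4 members are shown because these genes part company in KO replicate 10, where the first 3 lay above and Cldn11 lay below every other library. They run 5′ to 3′ on the strand of the gene, are RefSeq sequence on GRCm38.p6, end at or before the RefSeq start site and leave out any base inside the GENCODE gene. Capitals mark ACAAAG (the core read by SOX proteins such as SOX10) and CCAAT, each on either strand, so that they also appear as CTTTGT and ATTGG.
Mobp, chr9:120149492-120149706, plus strand: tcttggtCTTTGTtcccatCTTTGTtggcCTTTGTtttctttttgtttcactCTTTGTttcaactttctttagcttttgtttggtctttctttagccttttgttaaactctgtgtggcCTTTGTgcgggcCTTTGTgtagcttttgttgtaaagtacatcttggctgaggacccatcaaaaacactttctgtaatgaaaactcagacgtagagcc
Mag, chr7:30914923-30915172, minus strand: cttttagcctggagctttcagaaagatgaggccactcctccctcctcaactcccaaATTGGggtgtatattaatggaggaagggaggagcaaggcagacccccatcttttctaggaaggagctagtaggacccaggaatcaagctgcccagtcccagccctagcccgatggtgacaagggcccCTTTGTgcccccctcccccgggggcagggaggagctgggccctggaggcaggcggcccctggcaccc
Mog, chr17:37023399-37023648, minus strand: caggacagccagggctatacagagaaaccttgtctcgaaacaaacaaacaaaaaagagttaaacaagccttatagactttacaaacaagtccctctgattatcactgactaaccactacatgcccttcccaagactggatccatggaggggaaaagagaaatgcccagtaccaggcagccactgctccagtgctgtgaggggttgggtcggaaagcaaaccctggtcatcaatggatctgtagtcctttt
Cldn11, chr3:31149670-31149919, plus strand: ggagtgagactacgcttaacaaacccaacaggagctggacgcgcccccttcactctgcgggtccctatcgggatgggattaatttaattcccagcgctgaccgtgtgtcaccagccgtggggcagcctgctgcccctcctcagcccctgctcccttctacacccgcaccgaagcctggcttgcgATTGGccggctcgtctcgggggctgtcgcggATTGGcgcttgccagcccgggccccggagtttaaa
In the 250 bases before the start, ACAAAG occurred 6 times for Mobp and once each for Mag, Cnp and Opalin. It did not occur for Mog, Cldn11, Mal or Ermn. Thus 4 of the 8 members whose RefSeq window was read held it, against 16.5% of 32851 windows of the same length. For each member the window farthest upstream was read, whereas the share covers all windows without that choice. The sets are therefore not fully alike, here and for the motifs that follow. No other window of the 32851 held as many as 6, a number taken from Mobp itself after it was seen. CCAAT was found for Mag, Cldn11 and Ermn, 3 of 8 members, against 33.8% of all windows. ACAATG was found for Ermn and GGGCGG for Cnp, each 1 of 8, against 10.7% and 32.7% of all windows. TATAAA and CAGCTG, present in 12.4% and 13% of all windows, were in none of the 8. These are matches of letters only. Windows on the chromosome of Mbp were left out of the member windows, so Mbp is not among the 8.

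Across the 9 libraries, no member passed the threshold of an adjusted p of 0.05 between Clic1 KO and WT (limma, Benjamini-Hochberg over 14351 genes), where 0.286% of all genes passed. At an unadjusted p under 0.05 there was 1 member, Mbp, against 6.5% of all genes. The fold change was below 0 for 8 of the 9 members, against 49.6% of all genes, and Mag was the exception. The median log2 fold change over the members was -0.08, against a median of 0.00 over all genes. KO and WT libraries overlapped for all 9 members, whereas 3.41% of all genes showed no overlap in either direction. Log2 fold changes are KO minus WT on the log2(CPM + 0.1) scale throughout.

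**Figure D1:**
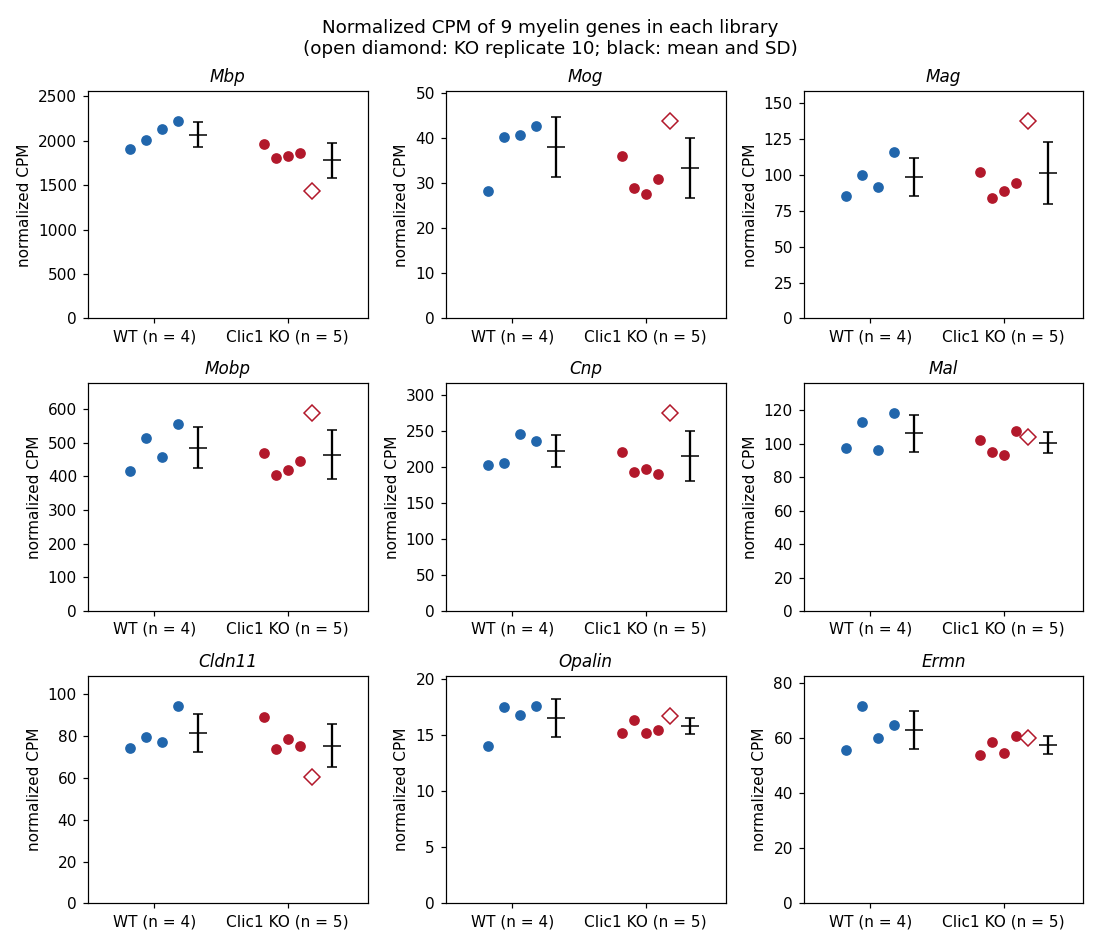
Normalized CPM of each of the 9 genes (vertical axes from 0) in the 4 WT libraries (blue) and the 5 Clic1 KO libraries (red, with replicate 10 as an open diamond), with the mean and SD of each group in black. The groups overlap in every panel, and replicate 10 is highest for Mog, Mag, Mobp and Cnp and lowest for Mbp and Cldn11.

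Mbp, myelin basic protein, binds the cytoplasmic faces of the membrane and is needed for compaction. Its level was 1964, 1807, 1825, 1859 and 1439 normalized CPM in KO replicates 2, 4, 6, 8 and 10 and 1905, 2013, 2133 and 2226 CPM in WT replicates 1, 3, 9 and 11. The groups met only where KO replicate 2 exceeded WT replicate 1. Mbp had the most negative fold change of the members, -0.22 (SE 0.09, 95% interval -0.42 to -0.03), with an adjusted p of 0.705 (limma) and an unadjusted two-sided exact permutation p of 0.0317, where 5 against 4 libraries cannot go below 0.0159. Without KO replicate 10, which was the lowest library, the log2 fold change was -0.15 (SE 0.05; limma adjusted p = 0.281; exact p = 0.0571, the smallest possible being 0.0286). Placing replicate 10 with the WT mice brought it to -0.04.

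Mobp, another small basic protein of compact myelin, did not share the low value of Mbp in replicate 10. In the same order of libraries, Mobp was at 469.5, 403.8, 418.0, 446.0 and 588.5 CPM in KO and 415.9, 515.7, 458.0 and 555.0 CPM in WT. Its highest library was KO replicate 10 and its lowest KO replicate 4, so the KO libraries spanned the whole WT range. The log2 fold change of Mobp was -0.07 (SE 0.11, 95% interval -0.32 to 0.18; limma adjusted p = 0.927), and -0.16 without KO replicate 10.

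Cnp, the cyclic nucleotide phosphodiesterase, is thought to keep channels of cytoplasm open within the sheath. It was at 220.0, 193.5, 196.7, 190.6 and 274.5 CPM in KO and 201.9, 204.8, 245.5 and 235.3 CPM in WT. KO replicates 4, 6 and 8 lay below all WT libraries, replicate 2 lay among them and replicate 10 above them. The log2 fold change was -0.05 with all libraries (SE 0.11, 95% interval -0.29 to 0.18; limma adjusted p = 0.943) and -0.15 without KO replicate 10 (SE 0.07; limma adjusted p = 0.462).

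Mog and Mag are surface proteins of the immunoglobulin superfamily. Mog, on the outermost turn of the sheath and an antigen in demyelinating disease, was at 36.06, 28.86, 27.47, 30.96 and 43.82 CPM in KO and at 28.22, 40.3, 40.7 and 42.7 CPM in WT. In 3 of the 4 WT libraries it was at least 40.3 CPM and in 4 of the 5 KO libraries at most 36.06 CPM, but WT replicate 1 lay with the low values and KO replicate 10 with the high ones. With all libraries Mog had a log2 fold change of -0.19 (SE 0.15, 95% interval -0.52 to 0.15; limma adjusted p = 0.862). The value was -0.29 (SE 0.12; limma adjusted p = 0.401) without KO replicate 10 and -0.32 without WT replicate 1.

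Mag, which faces the axon on the innermost turn and binds its surface, was the member whose KO mean exceeded its WT mean. It was at 101.6, 83.96, 88.46, 93.98 and 137.6 CPM in KO and 85.55, 99.88, 91.49 and 116.0 CPM in WT. Its highest library was KO replicate 10, and the other 4 KO libraries averaged 92.0 ± 7.60 CPM (SD, n = 4) against 98.23 ± 13.2 CPM in WT (SD, n = 4). The log2 fold change of Mag was 0.03 (SE 0.14, 95% interval -0.27 to 0.33; limma adjusted p = 0.980), and -0.09 without that library.

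Cldn11, the claudin that forms the tight junctions of myelin, was at 88.99, 73.94, 78.57, 75.53 and 60.39 CPM in KO and 74.43, 79.78, 77.3 and 94.63 CPM in WT. KO replicate 10 was its lowest library and KO replicate 2 the second highest. Cldn11 had a log2 fold change of -0.12 (SE 0.11, 95% interval -0.35 to 0.12; limma adjusted p = 0.877), which came to -0.04 without KO replicate 10 and turned to 0.05 with that library as WT.

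Mal, a small membrane protein of lipid rafts that takes part in sorting cargo to myelin, was at 102.4, 94.77, 93.22, 107.9 and 104.1 CPM in KO and 97.49, 112.7, 96.29 and 118.3 CPM in WT. Opalin, a transmembrane protein of oligodendrocytes, was at 15.2, 16.34, 15.2, 15.48 and 16.72 CPM in KO and 14.02, 17.51, 16.8 and 17.63 CPM in WT. Ermn encodes ermin, an actin-binding protein of late oligodendrocyte differentiation, and was at 53.96, 58.65, 54.58, 60.83 and 59.99 CPM in KO and 55.8, 71.91, 60.2 and 64.74 CPM in WT. For these 3 members replicate 10 lay inside the range of the other libraries, and the lowest WT library was replicate 1 for Opalin and Ermn and replicate 9 for Mal. Their log2 fold changes were -0.08 for Mal (95% interval -0.25 to 0.10), -0.06 for Opalin (-0.27 to 0.16) and -0.13 for Ermn (-0.31 to 0.05), with limma adjusted p-values of 0.880, 0.932 and 0.835.

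With KO replicate 10 left out, all 9 members had a fold change below 0, against 50.7% of all genes, and the median over the members was -0.14. None passed the threshold in this fit either, where 0.606% of all genes did, while Mbp, Mog and Cnp had unadjusted p-values under 0.05 (limma), against 10.5% of all genes. Libraries of both genotypes still overlapped for all 9, against 6.06% of all genes without overlap. With replicate 10 as WT, again no member passed, against 0.0348% of all genes, and Mog, Cnp and Mobp had an unadjusted p under 0.05 (limma), against 6.65% of all genes. With all 9 libraries the members' 95% intervals lay between -0.52 and 0.33, and over the 3 placements of replicate 10 none went below -0.62 or above 0.33.

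**Figure D2:**
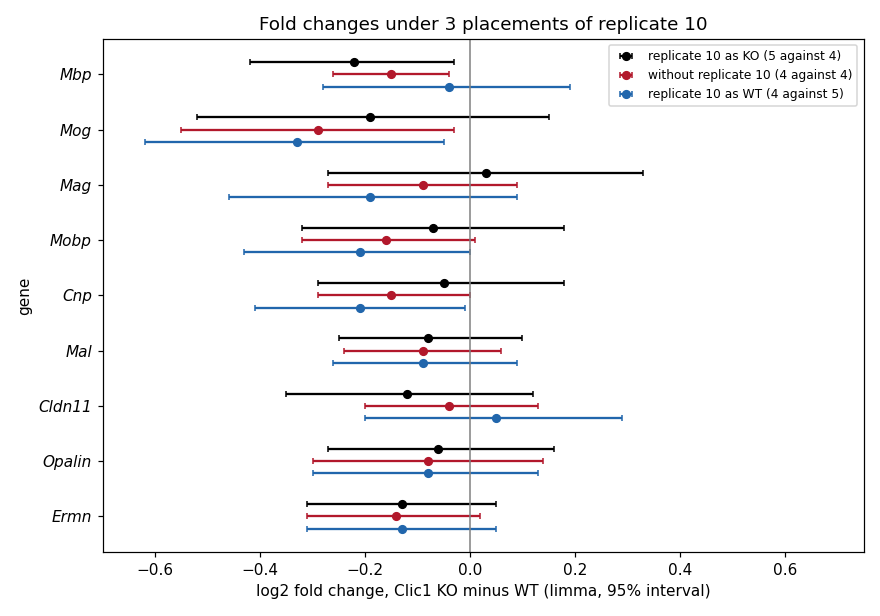
Log2 fold changes of the 9 genes (horizontal axis, Clic1 KO minus WT, on log2(CPM + 0.1)) with 95% intervals from limma, with replicate 10 as KO (black), left out (red) or as WT (blue). Mbp moves from -0.22 through -0.15 to -0.04 and Mog from -0.19 through -0.29 to -0.33, while Mal, Opalin and Ermn stay between -0.14 and -0.06.

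Seen library by library, all 9 members lay on 1 side of the WT mean in WT replicates 1 and 11 and KO replicates 4 and 6. Averaged over the 9 genes, the log2 difference from the mean of the WT libraries among KO mice was -0.04 for replicate 2, -0.18 for 4, -0.19 for 6, -0.11 for 8 and 0.03 for 10. Among WT mice it was -0.19 for replicate 1, 0.05 for 3, -0.01 for 9 and 0.15 for 11. WT replicate 1 was thus as low as the lowest KO library, with all 9 members below the WT mean, and WT replicate 11 was the highest, with none below. Around those averages the 9 genes scattered with an SD of 0.07 to 0.11 in 8 libraries and 0.34 in KO replicate 10. The sum over the members lay between 2725 and 3051 CPM for KO libraries (median 2797) and between 2878 and 3471 CPM for WT libraries (median 3187), a 1.27-fold range from lowest to highest library. Mbp makes up most of this sum.

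**Figure D3:**
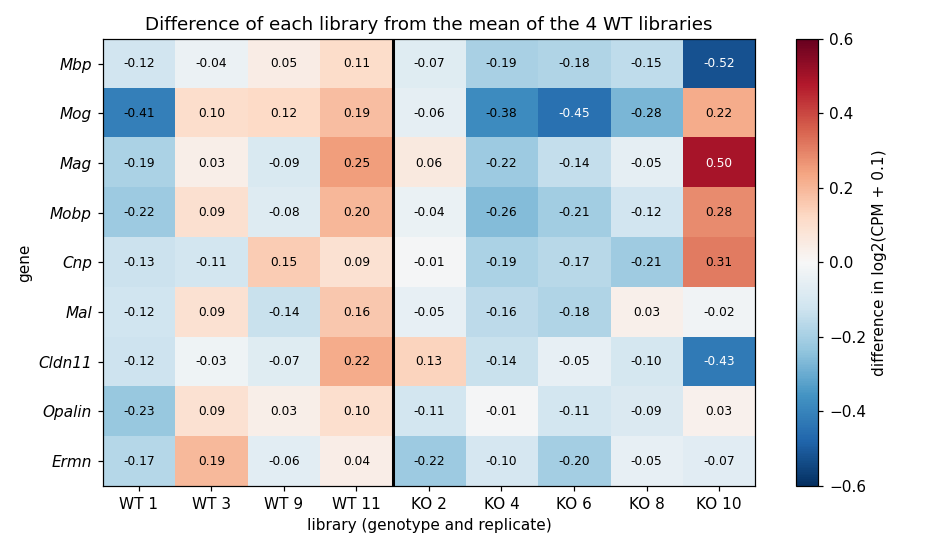
Difference of each library (columns, 4 WT then 5 KO) from the mean of the 4 WT libraries for each gene (rows), in log2(CPM + 0.1), with red for higher and blue for lower. WT 1, KO 4 and KO 6 are below 0 in all rows and WT 11 is above 0 in all rows, while KO 10 runs from -0.52 for Mbp to 0.50 for Mag.

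With the genotype means removed, the 36 pairs of members had a median correlation of 0.64 over the 8 libraries without KO replicate 10, and 35 of the 36 were positive. The highest was 0.97 for Mag and Mobp, and the negative pair was Cnp and Ermn at -0.25. Over all 9 libraries the median was 0.46, with 25 positive and 11 negative pairs, the lowest being -0.45. The points of each pair share their library, its depth and its scaling, so these values describe the libraries and carry no test. Within genotypes the median residual SD of the members was 0.183 on the log2 scale, against 0.161 for the 12072 genes of at least 5 CPM, with 5 of the 9 members above that value. Without KO replicate 10 the medians were 0.126 and 0.113, with 8 of the 9 above.

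In KO replicate 10 the members departed from the other libraries in both directions. Relative to the mean of the other 4 KO libraries, it was higher by 0.58 (log2) for Mag, 0.51 for Mog, 0.46 for Cnp and 0.44 for Mobp, and it differed by -0.37 for Mbp and -0.39 for Cldn11. These 6 members were outside the range of the other 8 libraries, a share near the 63.4% of all genes of at least 5 CPM given above, so the departure is not particular to the members. For Mal, Opalin and Ermn the difference was 0.07 to 0.10. The median size of the difference was 0.39 over the members and 0.28 over those genes.

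Ratios between members, chosen after the values were seen, do not depend on the scaling between libraries. The level of Mobp over that of Mbp was 0.409 in KO replicate 10 and 0.215 to 0.256 in the other 8 libraries. Cnp over Mbp was 0.191 against 0.102 to 0.115, and Mag over Cldn11 was 2.28 against 1.13 to 1.25. By contrast, Mog over Mag, both of the higher set, was 0.318 in replicate 10 and 0.311 to 0.445 elsewhere.

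**Figure D4:**
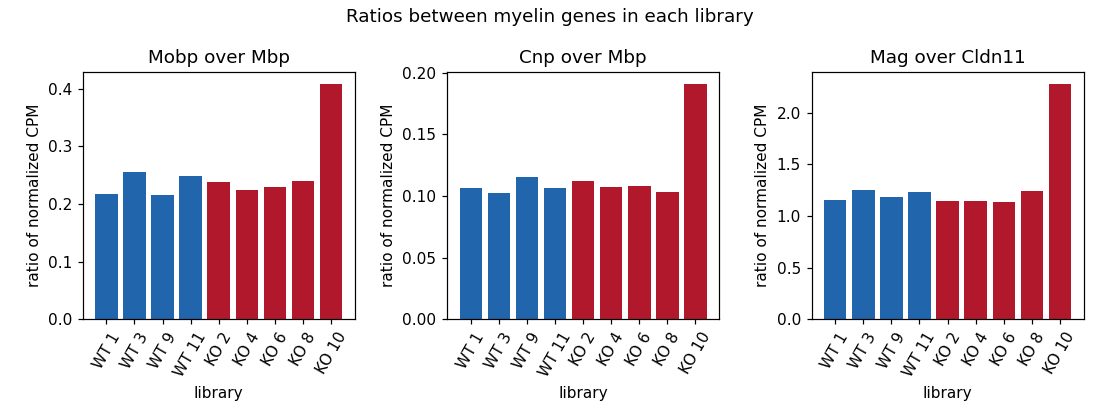
Ratios of the normalized CPM of Mobp to Mbp, Cnp to Mbp and Mag to Cldn11 (vertical axes from 0) in the 4 WT (blue) and 5 Clic1 KO (red) libraries. In each panel 8 bars are close together and KO 10 stands apart, at 0.409, 0.191 and 2.28.

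Other lists differed in that library as well, in both directions. In KO replicate 10 the 7 oligodendrocyte precursor genes summed to 973.9 CPM, against 1186 to 1226 CPM in its genotype otherwise, and the 8 oligodendrocyte transcription factors to 284.4 against 328.1 to 346.3 CPM. Thalamic markers (4 of 5 measured) summed to 111.3 CPM there, against 136.0 to 155.3 CPM in the other 8 libraries, and striatal markers (6) to 98.57 against 110.1 to 122.0 CPM. Genes of newly formed oligodendrocytes summed higher there, to 369.5 against 277.7 to 341.6 CPM, and the hypothalamic markers to 806.4 against 561.7 to 763.0 CPM. Most of the newly formed oligodendrocyte genes did not share that rise. Relative to the mean of the other KO libraries, Bcas1 (0.61, log2), Itpr2 (0.61) and Rras2 (0.14) were higher. Bmp4 (-1.88), Rnf122 (-0.89), Tmem163 (-0.39), Gpr17 (-0.17), Enpp6 (-0.11) and Neu4 (-0.003) were lower. The other mature oligodendrocyte genes, at 2370 CPM, stayed inside the range of the other KO libraries, 2286 to 2411 CPM. The part of cell makeup, region, depth or RNA quality in these values was not tested.

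Other genes of the oligodendrocyte lineage, together with axonal partners and peripheral myelin genes, gave the background against which the members were read. Of 69 genes measured in 6 further lists, none passed the threshold with all libraries (limma, adjusted p), against 0.286% of all genes. Among the 69, 5 had an unadjusted p under 0.05 (limma), against 6.5% of all genes. Without KO replicate 10 that count was 14 (limma), against 10.5% of all genes. It was 6 with replicate 10 as WT, against 6.65% of all genes. The 27 measured genes of other mature oligodendrocyte products, such as Ugt8a and Aspa, had a median log2 fold change of -0.07, with 17 below 0, and -0.08 with 20 below 0 without KO replicate 10. Their extremes were Gal3st1, which makes the myelin lipid sulfatide, at -0.46 (SE 0.15; limma adjusted p = 0.544), and Ppp1r14a, an inhibitor subunit of a protein phosphatase, at 0.23 (SE 0.22; limma adjusted p = 0.880), and without KO replicate 10 these came to -0.37 and 0.02. Ninj2 is not among the genes analysed.

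The median log2 fold change was -0.10 for the 8 transcription factors, from Sox8 at -0.18 to Nkx6-2 at 0.19, and -0.13 for the 7 precursor genes, from Lhfpl3 at -0.27 to Cspg4 at 0.03. Much of this rested on KO replicate 10. Without it the medians were -0.01 and -0.08, Nkx6-2 was at 0.05 and Lhfpl3 at -0.09, and with it as WT the medians were 0.08 and 0.01. Ptprz1, a receptor phosphatase of precursors and astrocytes, was the gene of these lists whose genotypes did not overlap, with KO libraries between 515.2 and 615.5 CPM and WT libraries between 640.8 and 720.3 CPM. It is named for this, and 1 of 69 is below the 3.41% of all genes without overlap. Its log2 fold change was -0.20 (SE 0.07; limma adjusted p = 0.551) and -0.16 without KO replicate 10.

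For 9 genes of newly formed oligodendrocytes the median log2 fold change was -0.07, from Rras2 at -0.35 to Itpr2 at 0.16. Bcas1, a marker of oligodendrocytes that are starting to myelinate, had KO values of 105.7, 106.9, 106.4, 103.8 and 161.1 CPM (the last in replicate 10) and WT values of 124.6, 141.8, 119.7 and 137.7 CPM. Without KO replicate 10 it was the 1 gene of the 69 past the threshold, where 0.606% of all genes passed. Its log2 fold change was then -0.31 (SE 0.06; limma adjusted p = 0.0205), whereas with that library it was -0.18 (SE 0.12; limma adjusted p = 0.844). Axonal partners at the node and paranode (14 genes) had a median log2 fold change of -0.05, from Lingo1 at -0.17 to Nefh at 0.36, with 10 of 14 below 0. Without KO replicate 10 that median turned to 0.02, with 3 of 14 below 0, Lingo1 at 0.01 and Nefh at 0.16. The 4 measured genes of the peripheral myelin list had a median of 0.00, from Pmp22 at -0.12 to Prx at 0.18.

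**Figure D5:**
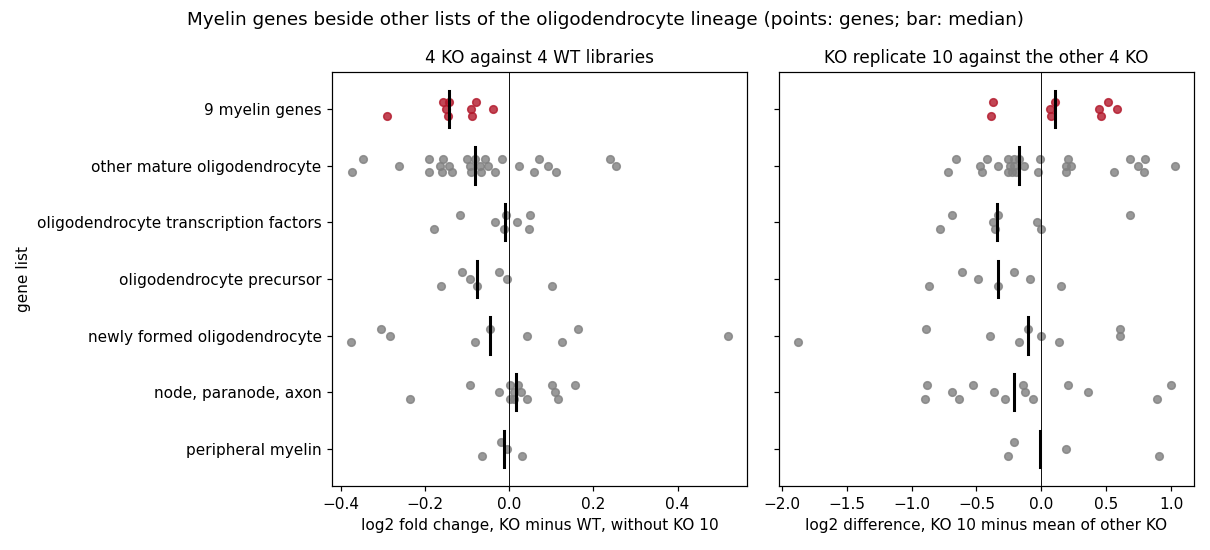
Left, log2 fold changes (Clic1 KO minus WT) without KO replicate 10. Right, log2 differences of KO replicate 10 from the mean of the other 4 KO libraries. Points are genes and bars medians, for the 9 myelin genes (red) and 6 other lists (grey). The 6 lists are of the oligodendrocyte lineage, axonal partners and peripheral myelin. On the left all 9 myelin genes lie below 0, and on the right they run from -0.39 to 0.58, within the spread of the other lists.

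Set against the mean of the 27 other mature oligodendrocyte genes of the same library, 0 of 9 members had an exact permutation p under 0.05 (unadjusted) between genotypes. The median of these relative differences was -0.01 on the log2 scale, with 5 of 9 below 0. It was -0.07 without KO replicate 10, with 8 of 9 below 0, and -0.07 with replicate 10 as WT, with 7 of 9 below 0. With all libraries Mbp had the largest, -0.16, with an exact permutation p of 0.0635. Mag had the most positive, 0.10, with an exact permutation p of 0.635. Without KO replicate 2 the relative difference of Mbp was -0.20 and its exact permutation p 0.0286, the smallest that 4 against 4 libraries allow. Without KO replicate 10 instead, it was -0.08, with an exact permutation p of 0.114, and with replicate 10 as WT it was 0.02, with an exact permutation p of 0.952.

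Markers of other cell types gave the same kind of background. Of 74 genes measured in 13 lists, 1 passed the threshold (limma, adjusted p), the hypothalamic peptide gene Avp, against 0.286% of all genes. Their median log2 fold changes were -0.17 for microglia (8 genes), -0.03 for astrocytes (9), -0.04 for neurons (8), 0.19 for endothelium (7), 0.59 for meninges (6), -1.14 for pituitary (3), 0.10 for ependyma (5), -0.03 for choroid plexus (3) and 0.37 for the 1 blood gene measured. For regional markers they were 0.05 for hypothalamus (10), -0.04 for thalamus (4), 0.03 for striatum (6) and 0.22 for cortex and hippocampus (4). Without KO replicate 10 the sign turned for neurons (0.01), thalamus (0.06) and choroid plexus (0.09), the ependymal median came to 0.00, microglia came to -0.10, astrocytes to -0.06 and hypothalamus to 0.12. The summed hypothalamic markers were higher in each KO library (618.3 to 806.4 CPM) than in each WT library (561.7 to 609.9 CPM), and overlapped once Avp was left out (429.7 to 563.3 against 439.3 to 507.0 CPM). The sum of the meningeal genes ranged from 79.14 to 358.2 CPM over KO libraries and from 92.63 to 199.7 CPM over WT libraries. The part of these cell types and regions in the members' values was not tested.

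The genes whose pattern over the 9 libraries was most like the mean log2 level of the members, among those of at least 5 CPM, were Scn4b (r = 0.921), Lmx1b (0.921), Ift88 (0.887), Vwa8 (0.878) and Rrp9 (0.872), with rank correlations of 0.83 to 0.93. The most opposite were Tcf3 (-0.910), 2700081O15Rik (-0.888), Zc2hc1c (-0.887), Mapk15 (-0.881) and Mob3c (-0.879). Without WT replicates 1 and 11, the 2 libraries farthest from the median, r was 0.80 to 0.98 for the first set and -0.90 to -0.80 for the second. Over the 8 libraries without KO replicate 10, Vwa8 (0.937), Scn4b (0.926) and Lmx1b (0.924) were again among the 5 most alike and Tcf3 (-0.920) and 2700081O15Rik (-0.900) among the 5 most opposite, and the other 5 genes were not. None of these 10 is an oligodendrocyte marker used here. These are descriptions of 9 libraries, picked from 12072 genes, and carry no test.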

How the data were processed

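Hypothalamic RNA of 9 mice was sequenced, 1 library each. Per the labels, the authors trimmed the reads (Trimmomatic 0.38), aligned them to GRCm38.p6 (STAR 2.5.1a) and estimated gene counts (RSEM 1.3.0). Genes of low CPM were then dropped and libraries scaled by the TMM method. The signal the authors deposited is this normalized CPM, whose sums differ a little between libraries. The kit's strand setting is not given in the sources used here. The authors' table of their own comparison (log fold changes, p-values) was used only to pair gene identifiers with symbols.

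A further 1 column, of a library without a sample entry here, was left aside. Replicate 10 was placed with the KO libraries from its description, against its title and treatment label. Groups share no replicate numbers.

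Values were fitted as log2(CPM + 0.1) with limma 3.58.1 in R 4.3.3 (lmFit, eBayes with trend, condition only), adjusting p by Benjamini-Hochberg over all 14351 genes (threshold 0.05). The fit was also run on simulated data, drawn as independent normal values with no library set apart as KO replicate 10 is. That run therefore does not show how the fit handles such a library. Single values were compared by two-sided exact permutation (the smaller tail doubled). P-values measure the spread between these mice. Low values (2.5 CPM or less) came to whole reads, within 0.03 reads, for 81.3% to 86.6% of genes, so depths are estimates and no count model was used.

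The members, marker lists, tests and alternatives were chosen with earlier results of these data known. Named are the 9 members and Clic1, and the 5 genes most and least like the members. In each of the 6 further lists, any gene past the threshold and both extremes are also named. Genes named beside these for non-overlap (Ptprz1), or past the threshold only without replicate 10 (Bcas1), were added after their values were seen. Alternatives were other pseudocounts, a filter at 5 CPM, other scalings and variance models, replicate 10 as WT, and leaving out each replicate.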

Additional observations from a re-analysis of the deposited data

Results flagged for a closer look

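Mog in the WT group stood out because 1 library lay far from the rest. WT replicate 1 was at 28.22 CPM while the other 3 WT libraries lay between 40.3 and 42.7 CPM, a gap larger than a group of 4 samples usually shows. It was the only such value among the 18 groups examined (9 members in each genotype), and chance marks about 1 group in 20, or 0.9 here. The same library was below the WT mean for all 9 members. What sets it apart was not tested.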

How the results depend on the processing

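No member passed the threshold in any of the 18 limma fits. The smallest adjusted p of a member was 0.281, for Mbp without KO replicate 10. Over 153 comparisons of single members with an alternative, 147 kept the sign of the fold change and 6 did not, 5 of them for Mag and 1 for Cldn11. The median log2 fold change of the members was -0.096 with array weights, -0.130 with replicate 10 as WT, and -0.143 to -0.024 when each replicate was left out. The number of members whose genotypes did not overlap, 0 with all libraries, ran from 0 to 2 when each replicate was left out. It was 1 (Mbp) without KO replicate 2 and 2 (Mbp and Opalin) without WT replicate 1. For these settings the share over all genes was not determined, so the counts cannot be read as a trait of the members. Among other oligodendrocyte genes, the count past the threshold went from 0 to 1 with array weights and ran from 0 to 1 when each replicate was left out, the gene being Bcas1 in both cases. Over all 14351 genes, 135 passed with array weights and 87 without KO replicate 10, the fit in which Bcas1 passed. Relative to other mature oligodendrocyte genes, 0 to 1 members had an exact permutation p under 0.05 when each replicate was left out, the 1 being Mbp without KO replicate 2. The cause of these moves was not tested. No paired analysis was possible because KO and WT mice share no replicate numbers. With 4 or 5 mice a group, differences smaller than the 95% intervals given for each gene cannot be told from 0, and the labels of replicate 10 conflict. Its Clic1 level, 1.43 CPM, lies within the range of the other KO libraries (0.733 to 1.93 CPM) and below every WT library (3.58 to 5.52 CPM).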
